A study of Mus musculus with 31 samples.

Results

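Embryonic transcription in the mouse is started by factors that the egg supplies, and 10 genes proposed for that role were followed here: Nfya, Nfyb, Nfyc, Dppa2, Dppa4, Nelfa, Yap1, Nr5a2, Smarca5 and Rarg. They were chosen by name from a count table of 20544 gene symbols, and all 10 were found in the table. The rule used no measured value, but earlier results of these data were known when it was made. RNA was sequenced from 31 single embryos at the 2-cell stage, each a library of its own, with 16 from control-treated sperm and 15 from sperm put through energy restriction and recovery (SER). The question was whether the sperm treatment changed the levels of these factors, or how much they vary between embryos, around the major wave of zygotic transcription. In each male, the cauda epididymis of one side went into medium with glucose and pyruvate (control) and that of the other side into medium lacking both (SER). The SER sperm stayed there until they stopped moving, after 15 to 45 min, and both kinds of sperm then received complete medium before insemination. Sperm came from wild-type C57BL/6J males of 12 to 14 weeks and oocytes from superovulated CD1 females of 8 to 10 weeks, in both groups. Gametes were kept together for 4 h, and embryos were collected 32 h after insemination. The labels do not say which male, female or fertilization day an embryo came from, so the p-values below measure the spread between embryos, and embryos of 1 dish may share more than their treatment.

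The newly fertilized mouse egg is nearly silent and runs on stored maternal RNA. A minor wave of transcription begins in the zygote and a major wave follows late in the 2-cell stage, while maternal RNA is cleared. NF-Y is a trimer of NFYA, NFYB and NFYC that binds the CCAAT box; NFYB and NFYC pair through histone-like folds and NFYA makes the sequence-specific contact. DPPA2 and DPPA4 act as a heterodimer on chromatin and are known activators of Dux and of genes of the 2-cell burst such as the Zscan4 family. NELFA is a subunit of the complex that pauses RNA polymerase II near promoters. YAP1 is the coactivator that TEAD factors recruit and that the Hippo kinases hold out of the nucleus, and its maternal protein has been linked to zygotic activation. NR5A2 is an orphan nuclear receptor, RARG a retinoic acid receptor, and SMARCA5 the ATPase of the ISWI remodelers that space nucleosomes.

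The DNA elements that several of these proteins read were looked for in RefSeq promoter windows on GRCm38.p6, each running from 250 bases before to 50 after a transcription start. Windows were given for 8 of the 10 factors (14 windows), and 5 windows are shown, each 5′ to 3′ on the strand of its gene, because they hold elements that factors measured here are known to bind. Capitals mark the matches named for each.
Nfyc, chr4:120825160-120825459, minus strand, capitals CCAAT or its complement ATTGG: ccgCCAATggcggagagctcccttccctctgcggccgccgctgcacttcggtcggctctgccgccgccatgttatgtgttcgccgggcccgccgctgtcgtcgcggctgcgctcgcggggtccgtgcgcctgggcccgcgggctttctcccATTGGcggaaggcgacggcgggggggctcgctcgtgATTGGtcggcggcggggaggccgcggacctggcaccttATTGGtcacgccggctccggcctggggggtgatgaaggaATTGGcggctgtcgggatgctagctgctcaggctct
Yap1, chr9:8004547-8004846, minus strand, capitals the TEAD element GGAATG: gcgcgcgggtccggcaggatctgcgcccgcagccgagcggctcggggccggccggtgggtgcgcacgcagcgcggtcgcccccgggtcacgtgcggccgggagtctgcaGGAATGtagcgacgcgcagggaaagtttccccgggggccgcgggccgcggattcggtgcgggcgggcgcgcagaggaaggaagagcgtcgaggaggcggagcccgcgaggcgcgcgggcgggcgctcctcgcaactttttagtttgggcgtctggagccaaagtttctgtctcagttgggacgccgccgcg
Nr5a2, chr1:136953581-136953880, minus strand, capitals ATTGG and GGAATG: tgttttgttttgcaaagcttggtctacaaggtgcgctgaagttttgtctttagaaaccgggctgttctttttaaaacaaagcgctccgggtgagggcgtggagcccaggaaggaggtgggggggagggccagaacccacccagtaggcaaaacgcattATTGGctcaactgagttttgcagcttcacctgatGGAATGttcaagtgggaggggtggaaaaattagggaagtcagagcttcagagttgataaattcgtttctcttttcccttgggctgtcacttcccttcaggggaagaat
Zscan4c, chr7:11005495-11005794, plus strand, capitals the NR5A2 element TGACCTT and CCAAT: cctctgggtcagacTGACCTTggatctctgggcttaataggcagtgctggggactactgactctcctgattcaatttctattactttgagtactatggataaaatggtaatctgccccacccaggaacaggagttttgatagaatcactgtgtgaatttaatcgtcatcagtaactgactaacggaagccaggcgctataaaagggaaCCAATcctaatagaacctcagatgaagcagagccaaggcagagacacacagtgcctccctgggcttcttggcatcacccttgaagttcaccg
Nhp2, chr11:51619523-51619822, plus strand, capitals the NR5A2 element and the CCAAT boxes on either strand: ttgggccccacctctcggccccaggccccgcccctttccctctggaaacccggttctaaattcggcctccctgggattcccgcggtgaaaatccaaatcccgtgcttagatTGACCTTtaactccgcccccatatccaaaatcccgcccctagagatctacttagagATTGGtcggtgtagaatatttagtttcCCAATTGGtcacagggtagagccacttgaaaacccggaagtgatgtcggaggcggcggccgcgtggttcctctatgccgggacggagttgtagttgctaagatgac
The Nfyc window shown, of a gene that itself encodes an NF-Y subunit, held 5 CCAAT boxes. Of these, 4 began 247, 99, 63 and 25 bases before the start. Windows at other starts of Nfyc held 3 and 0 CCAAT boxes. The Nr5a2 window that is not shown held neither a CCAAT box nor a TEAD element. On either strand, CCAAT or ATTGG was found in 37.4% of all 32851 windows, GGAATG or CATTCC in 14.7% and AAGGTCA or TGACCTT in 4.72%. The shorter half-site that retinoid and other nuclear receptors read, AGGTCA or TGACCT, lies inside the NR5A2 element and was found in 16.3%. Among the 8 factors with a window, 3 (Nfya, Nfyc and Nr5a2) held a CCAAT box in at least 1 window and 2 (Yap1 and Nr5a2) a TEAD element. The half-site was held by 3 (Nr5a2, Nfyc and Rarg) and the NR5A2 element by none. These counts are per factor, over 14 windows, and several factors had more than 1 window. They therefore cannot be set against the shares of all windows. A CCAAT box and an NR5A2 element together were found in 1.77% of all windows. They were found together in 4 of 13 genes of the 2-cell burst that had a window, all of the Zscan4 family, whose copies are near-identical and not independent, and in 1 of 11 ribosome biogenesis genes, Nhp2. A match here is only a run of letters, and no binding was measured.

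The libraries held 532945 to 2085222 counts in control-generated embryos (median 955806.5) and 642321 to 3088396 in SER-generated embryos (median 1375557). Values below are counts scaled to a common library total (CPM), and since this is a share, less of a transcript and more of all other RNA cannot be told apart. Among the reads that mark 5′ ends, the study kept only those that mapped uniquely. Genes with near-identical copies, such as the Zscan4 family, may therefore be undercounted, which was not tested. The 2-cell stage was checked with 18 measured genes of the 2-cell burst, whose summed level was between 45.3 and 2477 CPM in control- and between 141 and 2138 CPM in SER-generated embryos. The lowest value in each group came from an embryo that stood apart. Control replicate 4 and SER replicate 15 also had the lowest mean level of 13 ribosome biogenesis genes (4.81 and 5.43 as mean log2(CPM + 1), against medians of 8.19 and 8.55 in their groups) and the highest of 16 oocyte transcripts (7.98 and 8.35, against 6.55 and 6.61). Most of the main results that these 2 embryos touch are given with and without them. Cumulus cell markers, 11 in all, summed to a median of 19.7 CPM among control- and 6.09 CPM among SER-generated embryos, and control replicate 5 held 1626 CPM, most of it from Cyp11a1 (1423 CPM). Over the 31 embryos, 9 of the 11 had a median of 0 CPM, among them Inhba and Inha, which reached 120 and 53.7 CPM in control replicate 5. Cyp11a1 was counted in 23 and Star in 21 of 31 embryos. The 10 sperm markers summed to at most 70.9 CPM.

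**Figure D1:**
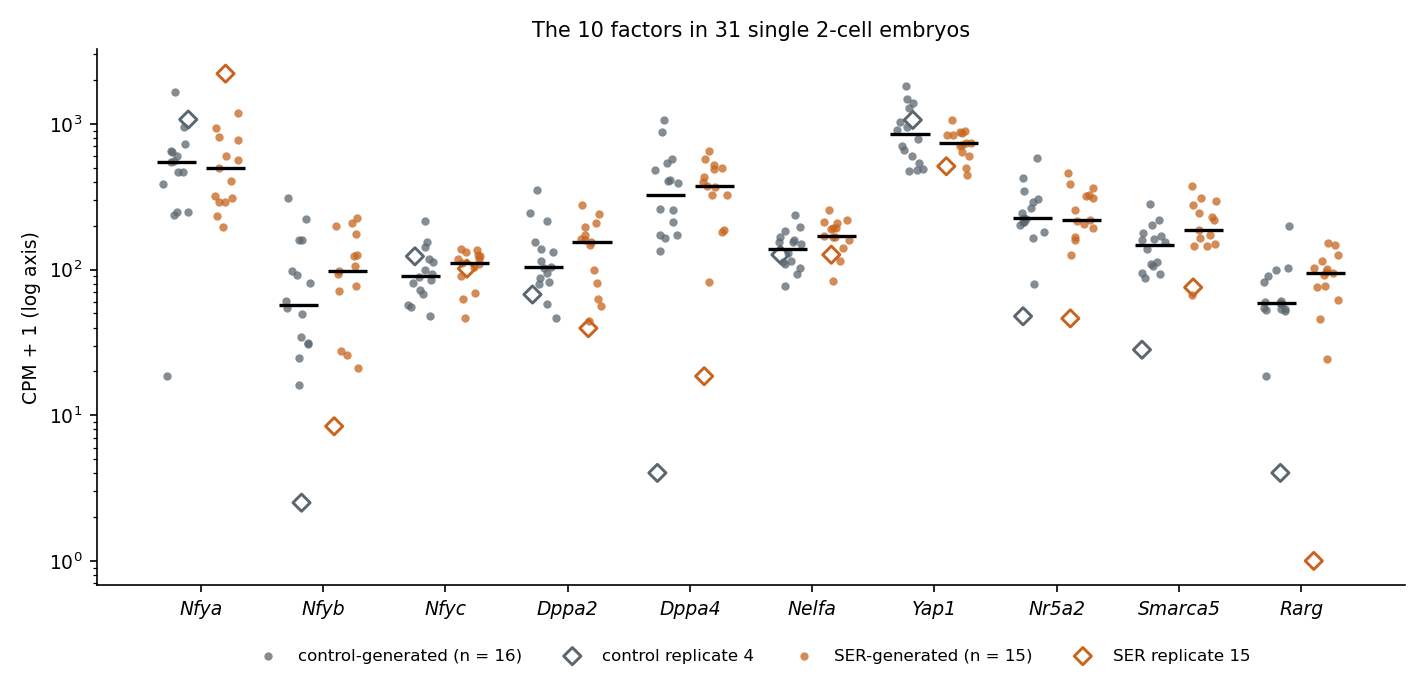
CPM + 1 on a log axis (vertical) of the 10 factors (horizontal) in every embryo, with grey points for the 16 control- and orange points for the 15 SER-generated embryos, black bars for group medians and diamonds for control replicate 4 and SER replicate 15. The groups overlap for every factor, and the diamonds lie at the bottom for Nfyb, Dppa4, Nr5a2 and Rarg, while the diamond of SER replicate 15 is the highest Nfya value.

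All 10 factors were detected, 9 of them in every embryo and Rarg in 30 of 31. Divided by exon length in kilobases and scaled per embryo to the total that CPM uses, the median level over the 31 embryos was highest for Dppa4 (806), followed by Yap1 (294), Nfya (268), Dppa2 (151), Nelfa (141), Nr5a2 (131), Nfyc (126), Smarca5 (74.1), Rarg (60.9) and Nfyb (59.0). Neighbours in this order overlapped widely. Within an embryo, Dppa4 was above Yap1 in 23 of 31 and Nfyc above Smarca5 in 26 of 31, whereas Nfya was above Dppa2 and Dppa2 above Nelfa in only 19 of 31 each, Rarg above Nfyb in 17 of 31 and Nelfa above Nr5a2 in 15 of 31. The order of these 4 pairs of neighbours does not exceed their spread. Length scaling is approximate here, since the reads that mark 5′ ends do not grow in number with length.

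The 3 subunits of NF-Y differed in how steady they were between embryos. Nfya, the sequence-reading subunit (chromosome 17, 48386885 to 48409906, minus strand), lay at 17.6 CPM in the lowest, 550 in the median and 1656 in the highest control-generated embryo. In SER-generated embryos it ran from 194 through a median of 493 to 2211 CPM. The lowest Nfya value belonged to control replicate 3, far below the next embryo of either group (194 CPM), and the highest to SER replicate 15. The groups overlapped, and 7 of 15 SER-generated embryos exceeded the median control value. Its log2 fold change, SER over control, was 0.10 (SE 0.37, edgeR adjusted p = 0.985) with all embryos and -0.10 (SE 0.33, adjusted p = 0.967) without control replicate 4 and SER replicate 15.
Nfyb (chromosome 10, 82748701 to 82764144, minus strand) ran from 1.51 through 56.4 to 307 CPM in control- and from 7.40 through 96.0 to 223 CPM in SER-generated embryos. The median control value was exceeded by 11 of the 15 SER-generated embryos, yet the groups overlapped over nearly their whole range. The log2 fold change was 0.12 (SE 0.46, edgeR adjusted p = 0.987), and also 0.12 (SE 0.40) without the embryos that stood apart.
Nfyc (chromosome 4, 120757438 to 120831572, minus strand) was the steady subunit, from 46.8 through 89.6 to 214 CPM in control- and from 45.3 through 110 to 137 CPM in SER-generated embryos. Its SD on the log2(CPM + 1) scale over all embryos was 0.52, smaller than that of all but 4.59% of the 8571 genes tested, against 1.22 for Nfya and 1.55 for Nfyb. The log2 fold change of Nfyc was 0.01 (SE 0.22, edgeR adjusted p = 0.997).
The 3 subunits were thus not in a fixed ratio. Per length, Nfya exceeded Nfyb in 29 of 31 embryos, with a median ratio of 5.75 in control- and 2.10 in SER-generated embryos, a difference that was not tested, and single embryos from 0.0547 (control replicate 3) to 491 (control replicate 4, where Nfyb had 1 count). Without the embryos that stood apart, the median over the other 29 was 3.33 and the highest ratio 48.7 (control replicate 16). Nfyc also exceeded Nfyb in 29 of 31 embryos, at a median ratio of 2.21 over all embryos.

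Dppa2 and Dppa4, which lie side by side on chromosome 16 on the plus strand (Dppa4 from 48283733 to 48294237, Dppa2 from 48303908 to 48319723), were close in both groups. Dppa2 ran from 45.4 through 102 to 349 CPM in control- and from 38.6 through 153 to 274 CPM in SER-generated embryos. Its log2 fold change was 0.06 (SE 0.30, edgeR adjusted p = 0.992), and 0.08 (SE 0.29) without the embryos that stood apart.
Dppa4 ran from 3.02 through 325 to 1069 CPM in control- and from 17.5 through 373 to 652 CPM in SER-generated embryos. Both minima came from the embryos that stood apart, and without them the lowest values were 132 and 81.3 CPM. The log2 fold change was -0.15 (SE 0.40, edgeR adjusted p = 0.982), and -0.16 (SE 0.30) without these embryos. Per length, Dppa4 exceeded Dppa2 in 29 of 31 embryos, at a median ratio of 3.83 in control- and 3.68 in SER-generated embryos. The exceptions were control replicate 4 (0.0669) and SER replicate 15 (0.669). Dux, a known target of the pair, had only 14 counts in all, in 10 of the 31 embryos, too few for a comparison. Whether the loss of reads that did not map uniquely lowered this count was not tested.

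Nelfa (chromosome 5, 33897916 to 33936413, minus strand) ran from 76.1 through 138 to 234 CPM in control- and from 82.4 through 169 to 254 CPM in SER-generated embryos. The mean was 172 ± 44.3 CPM (SD, n = 15) in SER- and 141 ± 41.6 CPM (SD, n = 16) in control-generated embryos. In all, 12 of 15 SER-generated embryos exceeded the median control value. The difference of 31.2 CPM had an unadjusted p of 0.0542 (2-sided permutation test), and the log2 fold change was 0.26 (SE 0.18, edgeR adjusted p = 0.935). With each embryo left out in turn, the unadjusted p was between 0.0164 and 0.0999, and it was under 0.05 without control replicate 7 (0.0337), 12 (0.0400), 14 (0.0482) or 16 (0.0164), or without SER replicate 2 (0.0312), 4 (0.0168), 10 (0.0441) or 15 (0.0370), and without both embryos that stood apart (0.0497). In the annotation used here, 60 exon bases of Nelfa are shared with Nsd2 on the opposite strand, and whether counting used the strand is not given in the sources used here.

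Yap1 (chromosome 9, 7931999 to 8004596, minus strand) had the lowest ratio of SER over control means of the 10, 0.798. It ran from 477 through 848 to 1829 CPM in control- and from 446 through 736 to 1062 CPM in SER-generated embryos, and the 4 highest values, 1277, 1390, 1471 and 1829 CPM, were all of control-generated embryos. The means were 731 ± 171 CPM (SD, n = 15) in SER- and 916 ± 405 CPM (SD, n = 16) in control-generated embryos (unadjusted p = 0.114, 2-sided permutation test). The log2 fold change was -0.35 (SE 0.19, edgeR adjusted p = 0.869). Yap1 was also lower in libraries with more counts (Pearson r = -0.53, Spearman rho = -0.51 with the log2 total over 31 embryos, a description), and SER-generated embryos had the deeper libraries. With the log2 total as a covariate the log2 fold change was -0.11 (SE 0.20, adjusted p = 0.985). An annotated transcript on the opposite strand, Gm20416, shares 116 exon bases with Yap1.

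Of the nuclear receptors, Nr5a2 (chromosome 1, 136842571 to 136960448, minus strand) had the most even groups, from 46.8 through 223 to 582 CPM in control- and from 45.2 through 218 to 456 CPM in SER-generated embryos. The mean difference was -0.145 CPM, and the log2 fold change -0.02 (SE 0.26, edgeR adjusted p = 0.997) with a 95% interval from -0.55 to 0.52. It was also -0.02 (SE 0.22) without the embryos that stood apart.
Rarg (chromosome 15, 102234938 to 102257517, minus strand) ran from 3.02 through 57.8 to 198 CPM in control- and from 0 through 93.8 to 151 CPM in SER-generated embryos. The value of 0 was that of SER replicate 15 and the 3.02 that of control replicate 4. The median control value was exceeded in 12 of 15 SER-generated embryos. The unadjusted p of the mean CPM was 0.238 (2-sided permutation test), and that of log2(CPM + 1) was 0.702. With each embryo left out in turn, the p of the mean CPM was between 0.0430 and 0.372. It was under 0.05 only without control replicate 15, the highest control value. The log2 fold change was 0.33 (SE 0.39, edgeR adjusted p = 0.964), and 0.34 (SE 0.26, adjusted p = 0.782) without both embryos.

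Smarca5 (chromosome 8, 80698507 to 80739497, minus strand) had the largest log2 fold change of the 10 in edgeR's test. It ran from 27.2 through 145 to 282 CPM in control- and from 66.0 through 186 to 371 CPM in SER-generated embryos, and 11 of 15 SER-generated embryos exceeded the median control value. The means were 202 ± 86.1 CPM (SD, n = 15) and 143 ± 61.2 CPM (SD, n = 16), a ratio of 1.42 (unadjusted p = 0.0331, 2-sided permutation test, and 0.0235 without both embryos that stood apart). With each embryo left out in turn, this p was between 0.0117 and 0.0662, and it was over 0.05 without control replicate 4 (0.0569), SER replicate 2 (0.0662), SER replicate 3 (0.0541), SER replicate 4 (0.0570) or SER replicate 11 (0.0591). Of all 8571 genes, 7.7% had a CPM difference with an unadjusted permutation p under 0.05, and 1 of the 10 factors did. The log2 fold change was 0.46 (SE 0.24), and with edgeR's adjustment over all genes it did not pass (adjusted p = 0.869). Without both embryos that stood apart it was 0.45 (SE 0.21, edgeR adjusted p = 0.609). An uncharacterised transcript, Gm45872, which is not a row of the table, shares 281 exon bases with Smarca5 on the same strand.

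Across the 10 factors, none passed an adjusted p of 0.1, the threshold of the study's methods, in edgeR's quasi-likelihood test over the 8571 genes kept by its filter. The same test called 0% of all genes (0 of 8571, with 491 at an unadjusted p under 0.05), so the count for the factors equals the background. Estimates were higher in SER-generated embryos for 7 and lower for 3 factors, with a median log2 fold change of 0.08 beside 0.02 over all genes tested. In the fit without the filter, which called 2.83% of 17803 genes, and in DESeq2, which called 0.677% of 7241, no factor was called either. The 95% intervals were wide, from -0.81 to 1.05 for Nfyb, the widest, and from -0.11 to 0.63 for Nelfa, the narrowest.
A weighted fit gave another answer. limma voom with a quality weight for each embryo called 9.89% of the 8571 genes and 3 of the 10 factors, namely Smarca5 (log2 fold change 0.74, SE 0.19, adjusted p = 0.0233), Nfyb (1.08, SE 0.32, adjusted p = 0.0515) and Yap1 (-0.54, SE 0.17, adjusted p = 0.0670). Its weights ran from 0.0863 for SER replicate 15 and 0.236 for control replicate 3 to 4.84 for control replicate 10 and 6.14 for control replicate 6. limma voom on the same values without these weights called 0 genes (541 at an unadjusted p under 0.05) and gave 0.37 (SE 0.25) for Smarca5, 0.07 (SE 0.53) for Nfyb and -0.27 (SE 0.18) for Yap1. Control replicates 6 and 10 had Nfyb at 59.5 and 48.8 CPM, near the control median, and Yap1 at 1390 and 1277 CPM, among its 4 highest values. The highest control Nfyb values, 307, 222, 158 and 157 CPM, came from control replicates 1, 3, 15 and 2, with weights of 0.276, 0.236, 0.564 and 0.511. The lowest, 1.51 CPM, came from control replicate 4, also of low weight (0.357). Control replicates 7 and 11, with weights of 3.12 and 2.94, had 15.0 and 29.9 CPM. The part of single weights in the Nfyb estimate was not tested.

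**Figure D2:**
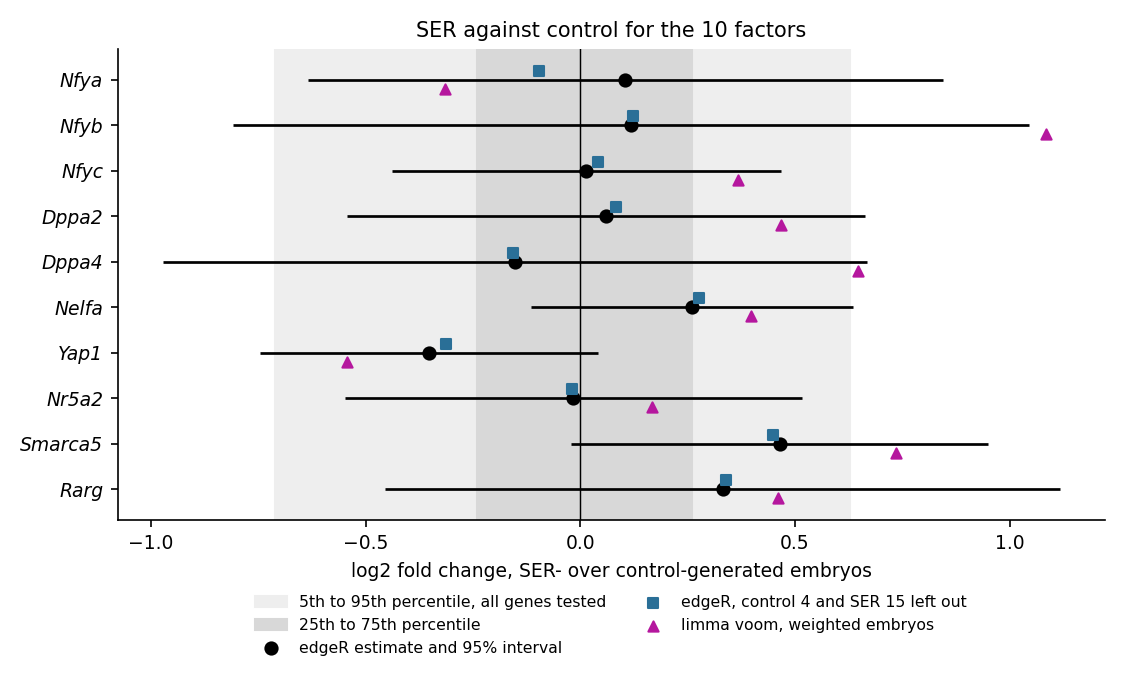
log2 fold change of SER- over control-generated embryos (horizontal) for each factor (vertical), with black points and lines for the edgeR estimate and its 95% interval, blue squares for the fit without control replicate 4 and SER replicate 15, and purple triangles for limma voom with weighted embryos. Grey bands hold the middle 50% and 90% of all genes, every black interval crosses 0, and the triangles lie farther from 0 than the points for every factor.

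The partners of each factor gave no call in edgeR's test either. Of 7 transcription factors known to bind beside NF-Y, 6 were tested, 4 with a higher and 2 with a lower estimate and none past the threshold, and the nearest was Sp2, a GC-box factor (log2 fold change 0.49, SE 0.28, adjusted p = 0.871). Of 13 known regulators of Dux other than the Dppa pair, all were tested, with 9 higher and 4 lower estimates and 0 calls. The smallest p there was that of Pcgf6, a Polycomb ring-finger protein that represses germline genes (0.46, SE 0.21, unadjusted p = 0.0317, adjusted p = 0.809). The other NELF subunits and the pausing and release factors, 13 in all, had 9 higher and 4 lower estimates and 0 calls, led by Ccnt1, the cyclin of the release kinase (0.47, SE 0.32, adjusted p = 0.935).
In the Hippo pathway around Yap1, 15 of 20 genes were tested, with 11 higher and 4 lower estimates and 0 calls. Lats1, the kinase that phosphorylates YAP1, had the smallest p (0.97, SE 0.47, unadjusted p = 0.0477, adjusted p = 0.869), and Taok1, a kinase upstream of it, had 0.35 (SE 0.19, adjusted p = 0.869). Of the receptors and coactivators around Nr5a2, 8 of 13 were tested, with 6 higher and 2 lower estimates and 0 calls, and Nr1h3, an oxysterol receptor, stood nearest (1.25, SE 0.74, adjusted p = 0.891). Among 11 tested genes of the ISWI complexes, 7 had higher and 4 lower estimates with 0 calls, and the nearest was Rbbp4, a histone chaperone (0.48, SE 0.26, adjusted p = 0.869). Around Rarg, 6 of 17 retinoid genes were tested, all 6 with lower estimates and 0 calls, at a median log2 fold change of -0.17 beside 0.02 over all genes. The nearest was Aldh1a2, which makes retinoic acid (-0.97, SE 0.65, adjusted p = 0.935), and its interval, like those of the rest, was wide.
Of the genes that mark progress through the 2-cell stage, 15 of 20 in the burst list, all 13 ribosome biogenesis genes and 15 of 16 oocyte transcripts were tested, with 0 calls. Their median log2 fold changes were 0.22, 0.16 and -0.17. In the burst list Tcstv1 (-0.73, SE 0.42) and Zscan4c (0.79, SE 0.46) had the smallest p, at adjusted p = 0.869 and 0.891. Of 8 markers of later stages 2 were tested, 1 with a higher and 1 with a lower estimate and 0 calls. No cumulus or sperm marker passed the filter. The fit of all 17803 genes, which called 2.83% of them, called 3 of 11 cumulus markers, Inhba, Inha and Cyp11a1, all lower in SER-generated embryos. Inhba was counted in 10, Inha in 6 and Cyp11a1 in 23 of 31 embryos, and each was highest in control replicate 5. That fit was not repeated without this embryo, so its part in these calls was not tested. Of 10 sperm markers 2 were called, Odf1 and Smcp, both higher and each counted in 3 of 31 embryos. Without control replicate 5, the embryo richest in cumulus transcripts, the log2 fold changes of the factors were between -0.37 (Yap1) and 0.43 (Smarca5) in edgeR's test, and no factor was called.

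Within the 31 embryos, irrespective of group, some of the factors varied together. Correlations here are of log2(CPM + 1), are descriptions without a test, and rest on libraries that share their total and the state of the embryo. Of 45 pairs of factors, 10 had a Spearman rho over 0.5 and 4 under -0.5. Dppa2 and Dppa4 were the closest pair (rho = 0.82, Pearson r = 0.68), at 0.82 in control- and 0.87 in SER-generated embryos alone, and 0.79 without the embryos that stood apart. Nfyb followed Dppa4 (0.75) and Dppa2 (0.71), Nr5a2 followed Dppa2 (0.69), and Smarca5 followed Rarg (0.66). Without the embryos that stood apart these were 0.70, 0.67, 0.64 and 0.59. Nfya ran the other way, at -0.75 with Dppa2, -0.74 with Dppa4 and -0.64 with its own partner Nfyb (-0.57 without the embryos that stood apart). Of all genes tested, 0.583% had a rho with Dppa2 as high as Dppa4 had, while 2.75% had a rho with Nfya as low as Dppa2 had. For the other pairs over 0.5 this share ran from 1.53% (Rarg with Smarca5) to 16.3% (Smarca5 with Dppa4). With Nfya it was 2.88% for Dppa4, 7.76% for Nfyb and 13.9% for Nr5a2. A share over all pairs of genes was not taken. Nelfa had no strong partner among the factors, with rho between -0.25 (Nfyb) and 0.22 (Nfya).

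**Figure D3:**
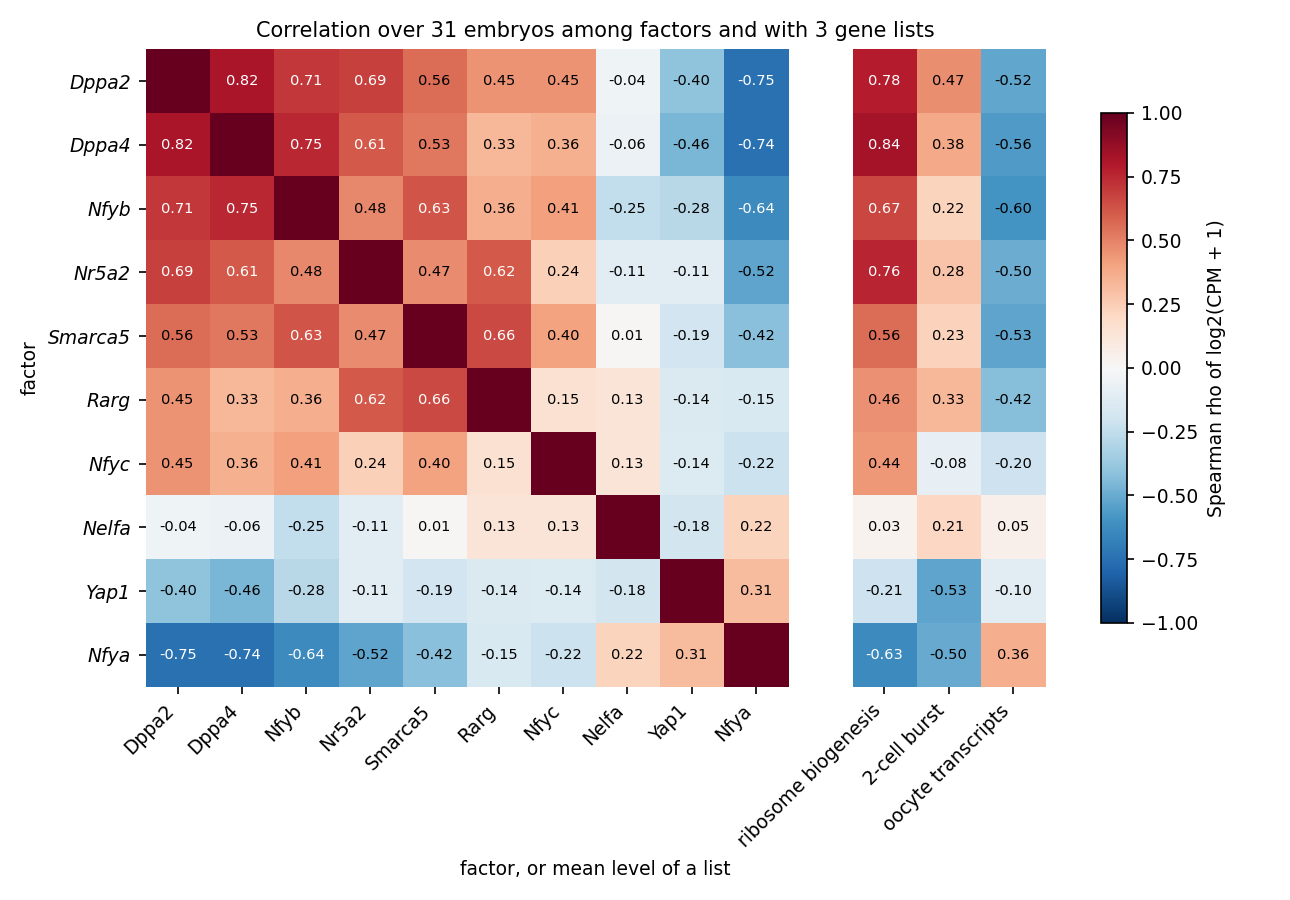
Spearman rho over 31 embryos between the 10 factors (left block) and between each factor and the mean level of 3 gene lists (right block), from blue (-1) to red (1). Dppa2, Dppa4, Nfyb and Nr5a2 are red against each other, most weakly Nfyb with Nr5a2 (0.48), and Smarca5 is red against each of them (0.47 to 0.63). Nfya is blue against these factors, and Nelfa is pale throughout.

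The same factors followed the ribosome biogenesis genes, a class of the major zygotic wave, a list that was added to this description after values had been seen. Over the 31 embryos, the mean level of the 13 genes had a rho of 0.84 with Dppa4, 0.78 with Dppa2, 0.76 with Nr5a2, 0.67 with Nfyb, 0.56 with Smarca5, 0.46 with Rarg and 0.44 with Nfyc. It was -0.63 with Nfya, 0.03 with Nelfa and -0.21 with Yap1. Without the embryos that stood apart, which are also the 2 farthest from the median level of the list, rho was 0.80 for Dppa4, 0.75 for Dppa2, 0.71 for Nr5a2, 0.59 for Nfyb and -0.56 for Nfya. For Smarca5 it was then 0.46, for Rarg 0.34 and for Nfyc 0.52. Pearson's r moved more, from 0.91 to 0.73 for Dppa4 and from -0.33 to -0.08 for Nfya, where control replicate 3 combined a low list level (6.72) with the lowest Nfya. Many other genes behaved alike, since 1.10% of all genes tested had a rho with the list as high as that of Dppa4 and 9.78% as high as that of Nfyb. The share was 2.77% for Dppa2, 3.80% for Nr5a2, 17.1% for Smarca5, 24.1% for Rarg and 25.4% for Nfyc. A rho as low as that of Nfya was found for 7.30%. In control-generated embryos alone rho was 0.75 for Dppa4 and -0.42 for Nfya, and in SER-generated embryos alone 0.93 and -0.77. The difference between the groups was not tested.

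**Figure D4:**
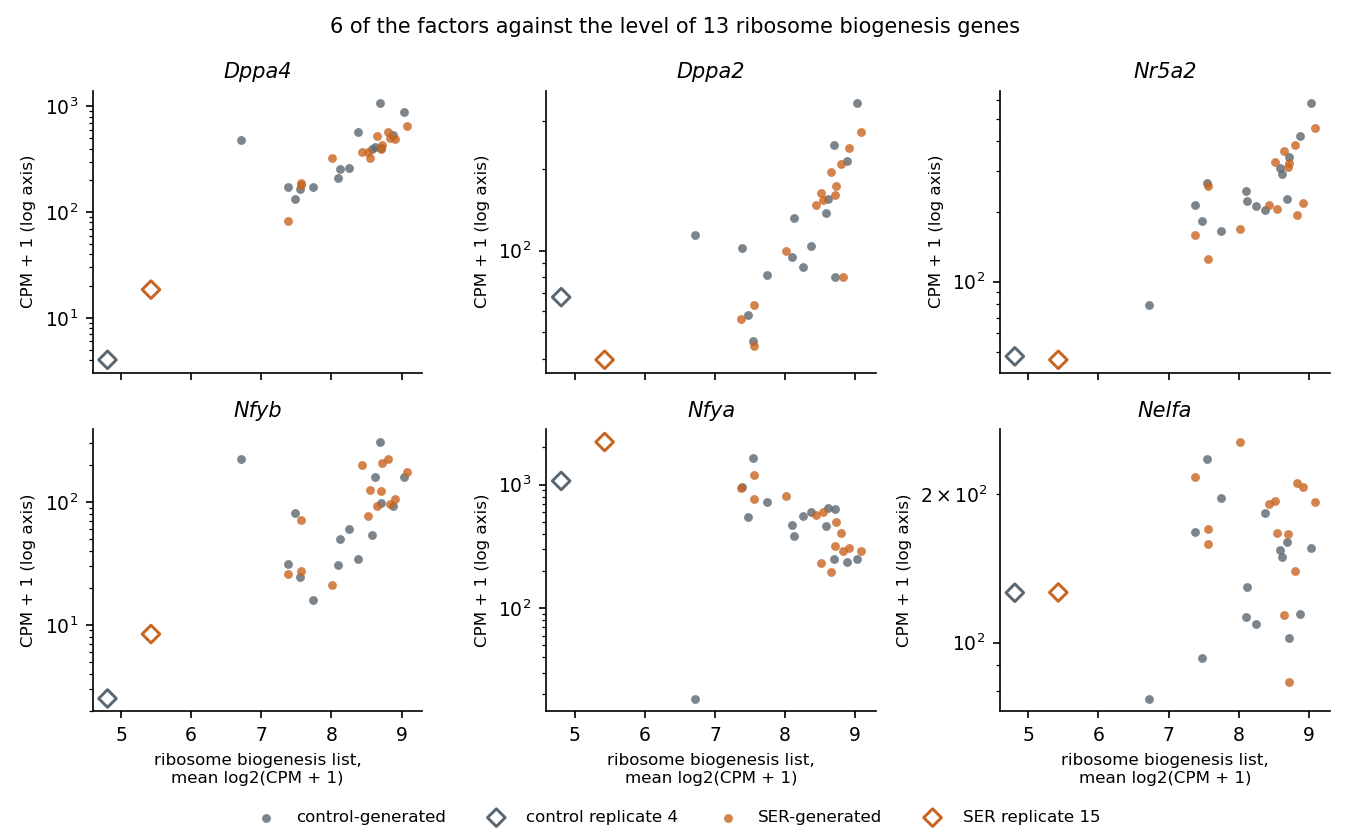
CPM + 1 on a log axis (vertical) of 6 factors against the mean log2(CPM + 1) of 13 ribosome biogenesis genes (horizontal), with 1 point per embryo, grey for control- and orange for SER-generated embryos, and diamonds for control replicate 4 and SER replicate 15. Dppa4, Dppa2, Nr5a2 and Nfyb lie higher where the list is higher, Nfya lower, and Nelfa shows no trend (rho = 0.03).

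With the oocyte transcripts the signs were mostly opposite, from -0.60 for Nfyb and -0.56 for Dppa4 to 0.36 for Nfya, or -0.51, -0.47 and 0.23 without the embryos that stood apart. Such values were common. Of all genes tested, 9.35% had a rho as low as that of Nfyb, 11.7% as low as that of Dppa4 and 19.6% as high as that of Nfya. With the genes of the 2-cell burst, rho was smaller for the activators of that burst, at 0.47 for Dppa2 and 0.38 for Dppa4, or 0.38 and 0.24 without the embryos that stood apart. In control-generated embryos alone these were 0.81 for Dppa2 and 0.75 for Dppa4, and in SER-generated embryos alone 0.19 and 0.03, a difference that was not tested. Yap1 (-0.53) and Nfya (-0.50) had negative rho with the burst genes, at -0.60 and -0.40 without the embryos that stood apart. Which of them was lower depended on the scaling, since with TMM-scaled totals rho was -0.42 for Yap1 and -0.52 for Nfya. Of all genes tested, 4.17% had a rho with the burst genes as high as that of Dppa2 and 8.80% as high as that of Dppa4. A rho as low as that of Yap1 was found for 2.09%, and as low as that of Nfya for 2.71%.

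The genes whose levels over the 31 embryos were most like those of a factor, by Spearman rho among all genes tested, differed from factor to factor. For Dppa4, Dimt1, a ribosomal RNA methyltransferase, was among them (0.92), and for Dppa2 they were Obox6, a gene of the Obox homeobox family (0.91), and Ipo7, a nuclear import receptor (0.90). For Nfya they were Ciapin1 (0.91) and Eif4e3 (0.91), for Nfyb Psat1 and Uqcc3 (both 0.90), and for Nfyc Tpx2 (0.76) and Trmt10c (0.68). For Yap1 they were Resf1 (0.86) and Eea1 (0.85), for Nr5a2 Phrf1 (0.81) and Polr3b (0.80), for Smarca5 Uspl1 (0.83) and Rc3h2 (0.82), and for Rarg Rprd1b (0.85) and Atxn7l3 (0.79). Nelfa had no close neighbour, with Rita1 at 0.60 and Slc38a7 at 0.56.

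The study described SER-generated embryos as more alike in the staining of histone marks in pronuclei, before the first cleavage. Here the spread of each factor's RNA was compared between the groups, which is another measure at a later time. Spread was the mean absolute deviation of log2(CPM + 1) from the group median. Yap1 had a spread of 0.27 in SER- and 0.52 in control-generated embryos, and its difference of -0.25 was the only one among the 10 with an unadjusted p under 0.05 (p = 0.0148, 2-sided permutation test). It was -0.28 (p = 0.0136) without the embryos that stood apart, and with each embryo left out in turn p was between 0.00599 and 0.0357. Of all 8571 genes, 3.69% had a spread difference with a p under 0.05, and no adjustment over the factors was made. The Yap1 level was lower in deeper libraries, as given above, and had a rho of 0.43 with the mean level of the cumulus markers. Its highest value, 1829 CPM in control replicate 7, came from the smallest library (532945 counts). The spread test held no term for depth or cumulus RNA. The other 9 factors had differences between -0.32 (Dppa4, p = 0.528) and 0.20 (Rarg, p = 0.726), which were -0.21 and 0.0033 without the embryos that stood apart. The spread was smaller in SER-generated embryos for 7 of the 10 factors (6 without these embryos), beside 53.6% of all genes tested (57.3%).

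**Figure D5:**
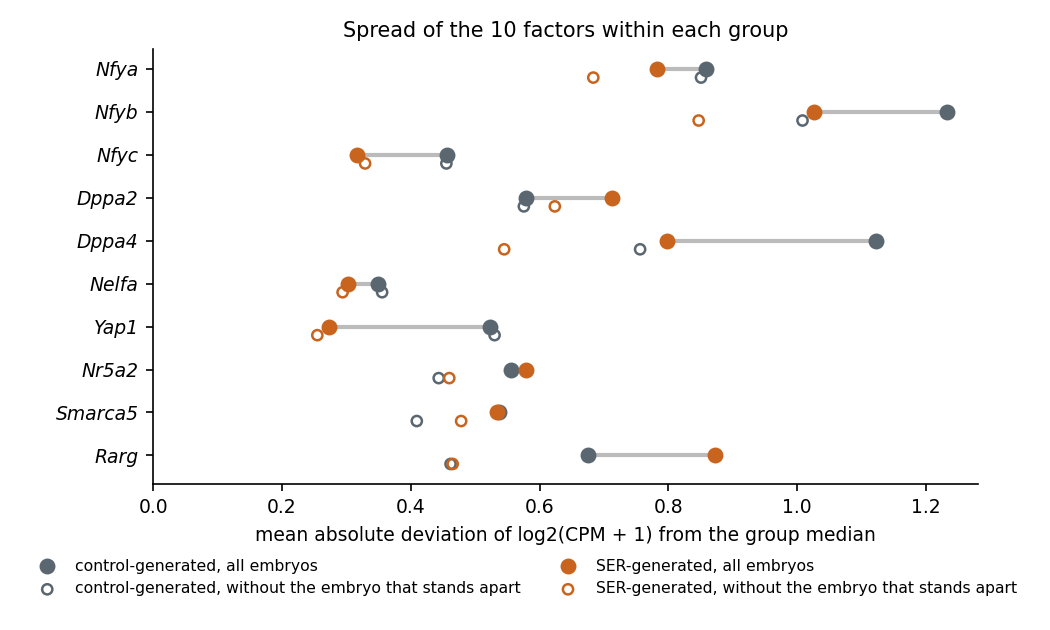
Mean absolute deviation of log2(CPM + 1) from the group median (horizontal) for each factor (vertical), with filled grey points for control- and filled orange points for SER-generated embryos, and open points for the same without control replicate 4 or SER replicate 15. Yap1 shows the clearest gap, 0.27 against 0.52, and the gaps of Dppa4 and Rarg shrink in the open points.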

How the data were processed

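Single 2-cell embryos were profiled with Smart-seq3, and the authors deposited raw read counts per gene symbol, made with STAR, UMI-tools, Picard and featureCounts on mm10 according to the methods and the submitters' processing notes. The annotation, the strand setting and the versions are not given in the sources used here. Groups and replicate numbers came from the sample labels. The study corrected for batches, described as made up of both groups. The labels used here do not name an embryo's batch, so no batch term was used and the part of batch was not tested. SER- and control-generated embryos were compared with edgeR 4.0.16 (R 4.3.3), by its quasi-likelihood test after TMM scaling and filterByExpr, with Benjamini-Hochberg adjustment over all genes kept and a threshold of 0.1, as in the study. Single values were compared with 2-sided permutation tests of 100000 resamples. Correlations and spread used log2(CPM + 1). The edgeR test was checked on simulated counts and the permutation test on simulated normal values. Alternatives were DESeq2 1.42.0, limma 3.58.1 (voom), 2 surrogate variables (sva 3.50.0), the log2 total as covariate, other filters, scaling and pseudocounts, thinning to 532945 counts, a replicate block and leaving out each embryo. Total counts, from 532945 to 3088396, limit the precision of low genes. The cumulus, sperm and later-stage markers were named after their values were seen. The other named genes are the 10 factors, up to 4 genes of smallest p in each list of partners, and the 2 genes most correlated with each factor. An item that this rule names is not reported here. The members and lists were chosen with earlier results of these data known. Gene positions are of GENCODE on GRCm38, and promoter windows and their build are of RefSeq.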

Additional observations from a re-analysis of the deposited data

How the results depend on the processing

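No gene was called in the test of genes kept by the filter with any single embryo left out (0 to 0). That count was 504 without the filter, where 17803 genes were tested, 49 with DESeq2, 73 with DESeq2 without the 2 embryos that stood apart, and 848 with limma voom and embryo weights, which also called 3 factors and was the only fit that called any. Its cause was not tested beyond the fit without weights, which called 0. With no filter the count was 514 under DESeq2 size factors and 590 without the 2 embryos. The factors with an unadjusted p under 0.05 in CPM numbered 1, 0 on log2(CPM + 1), 2 without the 2 embryos and 0 to 2 with single embryos left out, and those in spread 1 to 1. Log2 fold changes turned sign for Nfya (-0.31), Dppa4 (0.65) and Nr5a2 (0.17) with weights, for Dppa2 (-0.026) and Rarg (-0.20) in voom without weights, for Dppa2 (-0.066) and Rarg (-0.077) with 2 surrogate variables, for Nfyc (-0.016) and Dppa2 (-0.042) with the log2 total as covariate, for Nr5a2 (0.063) after thinning, and for Nfya without the 2 embryos (-0.10, and -0.11 in DESeq2). CPM differences turned sign on log2(CPM + 1) for Dppa4 (0.15) and Nr5a2 (0.027), and without the 2 embryos for Nfya (-31.1) and Nr5a2 (0.92). The spread difference of Smarca5 turned sign with a pseudocount of 5 (0.0041), after thinning (0.030) and without the 2 embryos (0.069). With single embryos left out, log2 fold changes ranged from -0.21 to 0.29 for Nfya, -0.0032 to 0.42 for Nfyb, -0.031 to 0.16 for Nfyc, -0.058 to 0.24 for Dppa2, -0.25 to 0.067 for Dppa4 and -0.12 to 0.13 for Nr5a2. CPM differences ranged from -62.9 to 120 for Nfya, -46.7 to 24.4 for Dppa4 and -14.9 to 22.0 for Nr5a2. Spread differences ranged from -0.17 to 0.19 for Nfya, -0.39 to 0.018 for Nfyb, -0.58 to 0.042 for Dppa4, -0.096 to 0.14 for Nr5a2, -0.071 to 0.12 for Smarca5 and -0.21 to 0.41 for Rarg. None of these values that turned sign had passed its test, and the causes were not tested.

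Control and SER embryos share replicate numbers that the labels tie to no animal or day. Over 15 pairs, the correlation of same-numbered embryos' deviations ran from -0.37 to 0.49, with 8 over 0.1, and 2 SER embryos correlated best with their own number, so the numbers were not taken as a pairing. With a replicate block on 30 embryos 0 of 8361 genes were called, with 309 at an unadjusted p under 0.05 against 464 without the block on the same embryos. Dppa2 (-0.043) and Nr5a2 (0.0040) turned sign under the block, and Dppa2 (-0.0036) on the same embryos without the block. The fits without the 2 embryos, voom without weights, the unblocked fit of 30 embryos and the ribosome biogenesis list were chosen after seeing the data.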
